A study of Mus musculus with 6 samples.

Results

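The genes described here are 10 regulators of alternative splicing that heart and skeletal muscle use: Rbfox1 and Rbfox2, Mbnl1 and Mbnl2, Celf1 and Celf2, Rbm20 and Rbm24, Ptbp1 and Qk. The set was chosen by measured values. Rbfox1 was taken because it was already known to be among the genes that fell with Cre on these arrays, and the other 9 genes were added as its relatives and partners. Members were found as every probe set that the platform annotation assigns to 1 of these symbols alone, which gave 44 of the 45101 probe sets on the array, for 10 genes of the 13062 that could be tested. Since the same contrast chose the set, the members' differences are given as descriptions, with standard errors and intervals but without p-values.

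RNA came from the apex of hearts of male mice aged 6 to 7 weeks, 1 heart per array and 6 arrays in all. The 3 alpha MHC Cre hearts were Fog2flox/delta and carried a Cre transgene under the promoter of the α-myosin heavy chain gene, which is active in cardiomyocytes. The 3 no Cre hearts were also Fog2flox/delta. They kept an intact floxed allele but already lacked Fog2 on the other chromosome, as every animal here did. No hearts with Cre but without a floxed allele were analysed here, so an effect of Cre itself and an effect of losing Fog2 cannot be told apart.

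These proteins bind short motifs in pre-mRNA and decide which exons a muscle cell keeps. Rbfox proteins recognise UGCAUG and act on exons of contractile, calcium handling and transcription factor genes, and Rbfox1 is the form typical of neurons, heart and skeletal muscle while Rbfox2 is expressed more widely. Mbnl proteins promote adult splicing patterns and Celf proteins often oppose them, an antagonism known from myotonic dystrophy. Rbm20 represses exons of titin and is mutated in familial dilated cardiomyopathy, Rbm24 promotes inclusion of muscle exons, Ptbp1 represses tissue-specific exons in many cell types, and Qk encodes the Quaking proteins, which regulate splicing and RNA stability.

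Rbfox1 lies on mouse chromosome 16, and RefSeq (GRCm38.p6) places its transcript starts far apart. The starts in the promoter table are 1185042 bases from each other. Both windows are shown because Rbfox1 is the member whose signal differed clearly between the groups, and no source used here says which of these starts the heart uses. Each window runs from 250 bases before a start to 50 bases after it, on the plus strand, and capitals mark the bases after the start.

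Rbfox1 upstream start, chr16:5884543-5884842: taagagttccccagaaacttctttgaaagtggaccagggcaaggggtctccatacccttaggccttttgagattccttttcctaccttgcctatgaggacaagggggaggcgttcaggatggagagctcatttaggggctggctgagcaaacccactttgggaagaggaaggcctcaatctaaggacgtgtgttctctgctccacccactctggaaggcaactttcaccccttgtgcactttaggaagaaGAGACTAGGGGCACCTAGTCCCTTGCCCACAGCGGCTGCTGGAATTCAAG

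Rbfox1 downstream start, chr16:7069585-7069884: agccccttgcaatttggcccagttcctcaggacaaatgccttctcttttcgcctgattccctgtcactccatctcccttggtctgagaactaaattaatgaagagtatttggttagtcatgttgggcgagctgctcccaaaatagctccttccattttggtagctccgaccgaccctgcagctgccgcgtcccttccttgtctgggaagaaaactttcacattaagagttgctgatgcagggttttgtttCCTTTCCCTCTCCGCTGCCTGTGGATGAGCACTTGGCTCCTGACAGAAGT

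Fog2 is a cofactor that binds GATA transcription factors, so the windows were searched on both strands for the GATA hexamers AGATAA or AGATAG, or TGATAA or TGATAG. Neither Rbfox1 window holds a match. Of the 14 windows of 8 members in the table, 2 hold a match, both of Celf2, against 29.8% of all 32851 windows of this length. Rbfox2 and Rbm20 had no window in the table. An absent match says only that these letters do not occur in these 300 bases.

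The array values were log2 signals of probe sets, groups of short probes for 1 transcript. Array medians ran from 5.71 to 5.81 and maxima from 13.97 to 14.00. After 64 control probe sets and the dimmest 40% of the others were left out, 27022 probe sets were tested with limma, and a call means a Benjamini-Hochberg adjusted p under 0.05 over all of them. By this rule 1.79% of the tested probe sets fell, 3.43% rose and 5.23% were called in either direction. The titles name the hearts as biological replicates. Zfpm2 is the official symbol of Fog2, and its probe sets disagreed in sign. The one with the lower signal had log2 values of 5.46, 5.61 and 5.65 in alpha MHC Cre hearts, against 6.34, 6.40 and 6.65 in no Cre hearts. The one with the higher signal had log2 values of 10.71, 10.48 and 10.50 in alpha MHC Cre hearts, against 8.86, 8.83 and 8.95 in no Cre hearts. The lower one fell by 0.88 ± 0.13 (SE, limma adjusted p 0.0052, or 0.068 and no call when dim probe sets were kept) and the higher one rose by 1.68 ± 0.11 (0.00014). No source used here says which exons they cover, so neither alone checks the deletion.

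Of the 44 probe sets, 40 passed the filter on dim signals, and the 4 that did not belong to Mbnl1 (1), Celf1 (1) and Celf2 (2). Their differences in a fit without the filter were -0.37, -0.05, 0.02 and 0.21, all with overlapping groups. In the fit across all tested probe sets, 4 of the 40 were called, all lower, which is 10% against 5.23% of all probe sets. All 4 belong to Rbfox1, and 0 of the 36 tested probe sets of the other 9 genes were called by limma. Of those 36, 6 had an unadjusted p under 0.05, against 17.7% of all tested probe sets. Since the contrast chose the set, these shares are descriptions only. The median difference, alpha MHC Cre minus no Cre, was -0.10 over the 40 probe sets and -0.09 over the 36 without Rbfox1, beside -0.02 over all probe sets tested.

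**Figure D1:**
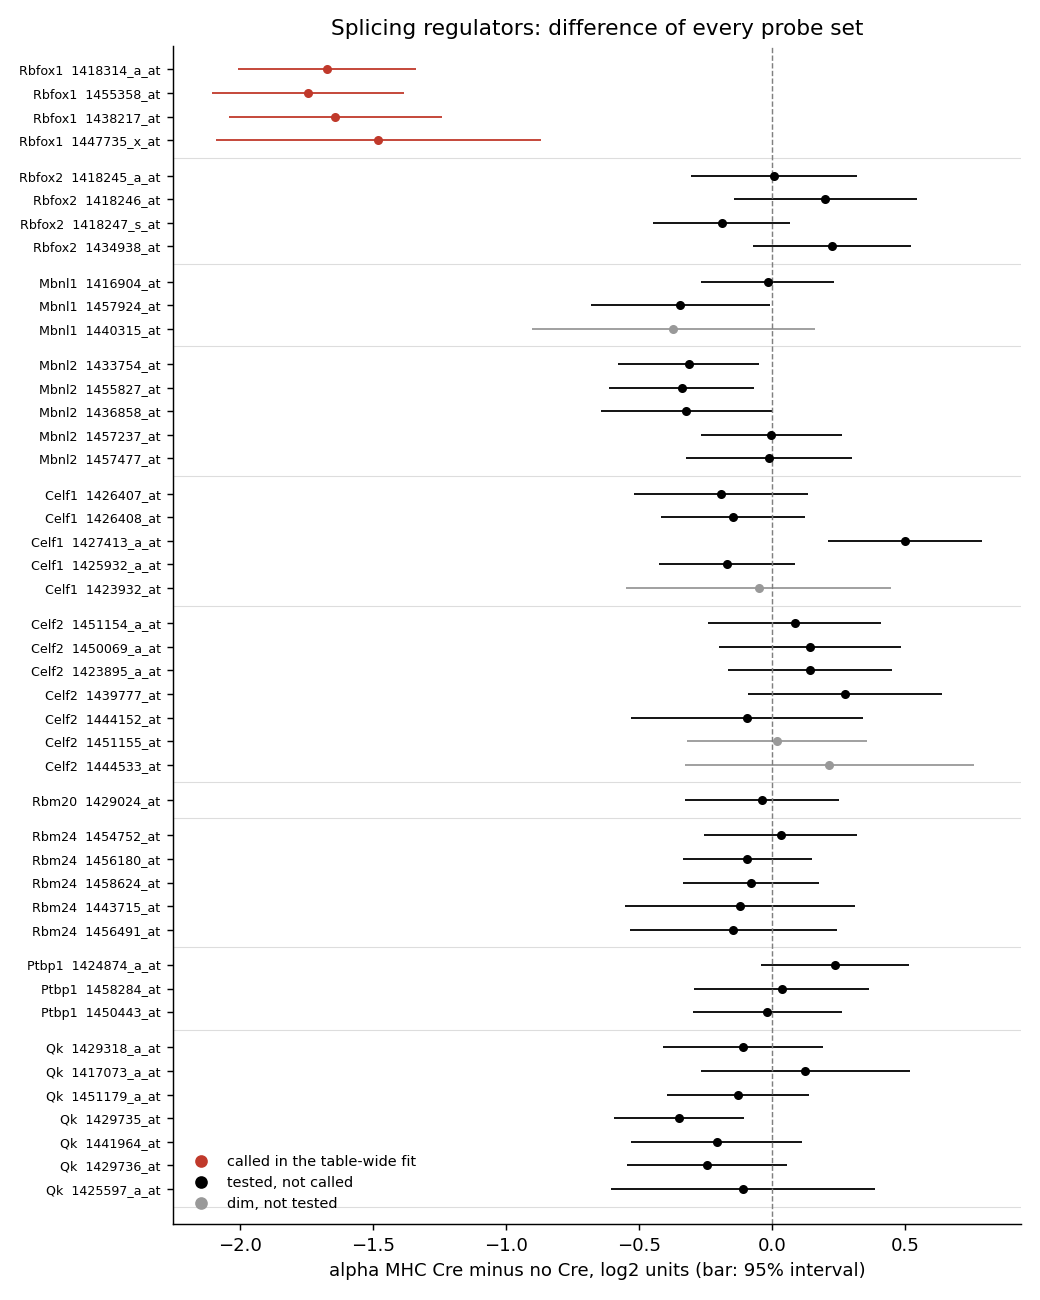
Difference in log2 signal, alpha MHC Cre minus no Cre, for each of the 44 probe sets, with 95% intervals from the fit, grouped by gene and ordered by brightness within a gene. The 4 Rbfox1 probe sets lie between -1.74 and -1.48, while the tested probe sets of the other genes lie between -0.35 and 0.50.

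Rbfox1 was lower in every alpha MHC Cre heart by each of its 4 probe sets. The brightest, 1418314_a_at, read 8.98, 8.73 and 8.49 in alpha MHC Cre hearts, against 10.27, 10.47 and 10.47 in no Cre hearts. The highest alpha MHC Cre heart lay 1.30 below the lowest no Cre heart, a gap several times the SD of either group. The means were 8.73 ± 0.24 and 10.40 ± 0.11 (SD, n = 3 each), a difference of -1.67 ± 0.15 (SE), or 3.19-fold lower with Cre. The 95% interval of this difference ran from -2.01 to -1.34. Like all intervals given here, it comes from limma and is not adjusted for the number of probe sets.

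The other Rbfox1 probe sets gave differences of similar size. Probe set 1455358_at read 7.76, 7.41 and 7.19 in alpha MHC Cre hearts, against 9.07, 9.20 and 9.31 in no Cre hearts, 3.35-fold lower. Probe set 1438217_at read 7.60, 7.44 and 6.98 in alpha MHC Cre hearts, against 8.82, 8.92 and 9.19 in no Cre hearts, 3.12-fold lower. In both, the 3 hearts with Cre sat together well below the 3 without. The dimmest, 1447735_x_at, read 6.18, 4.96 and 5.39 in alpha MHC Cre hearts, against 7.00, 7.17 and 6.80 in no Cre hearts. Here too the groups did not overlap, but the hearts with Cre were spread more widely (SD 0.62) and the gap was 0.61. Its suffix marks a design whose probes may also bind other transcripts, and its call was lost without alpha MHC Cre heart 2 (difference -1.20), without no Cre heart 2 (-1.39) and when dim probe sets were kept (-1.48). With 64 added to the unlogged signal its difference was -0.78, while the brightest probe set gave -1.54.

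**Figure D2:**
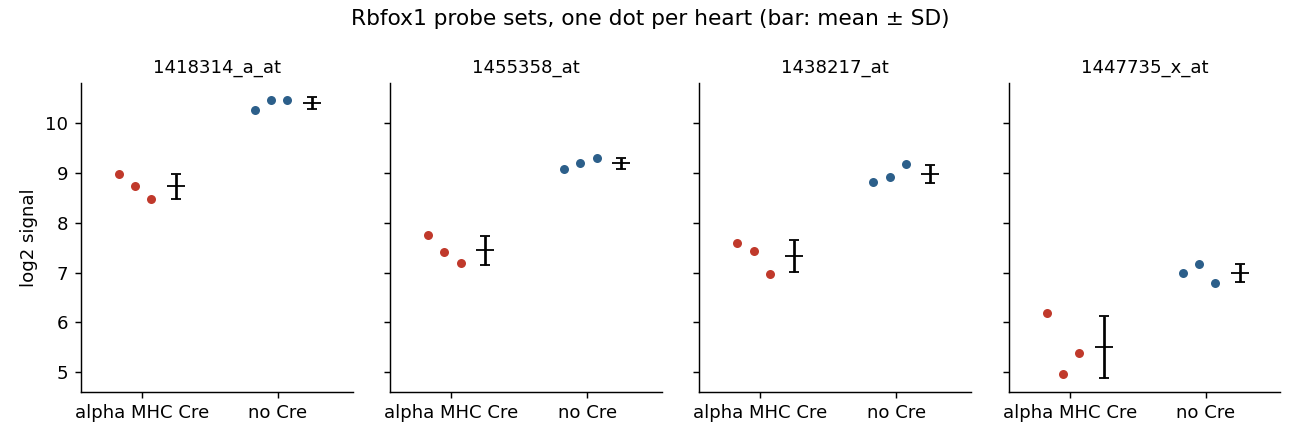
Log2 signal of the 4 Rbfox1 probe sets, brightest to dimmest from left to right, 1 dot per heart, with the mean and SD of each group beside the dots. In each panel the 3 alpha MHC Cre hearts lie below the 3 no Cre hearts, with gaps of 1.30, 1.31, 1.23 and 0.61.

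Probe sets of 1 gene measure the same RNA extract, so they are not separate replicates of the groups. Across the 6 arrays the brightest Rbfox1 probe set correlated at 0.999 with 1455358_at, 0.993 with 1438217_at and 0.922 with 1447735_x_at, values that the group difference dominates. Alpha MHC Cre heart 1 was the highest of its group in all 4 probe sets. Ordered by difference over the 13062 genes tested, each through its brightest probe set, Rbfox1 was number 18 from the lowest.

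Markers of the cell types in the apex give the setting for this difference. In bulk tissue, fewer cells of a type and less RNA per cell cannot be told apart. None of the 8 ventricular cardiomyocyte markers (among them Myh6, Myl2 and Tnni3) was called by limma, with 0 at an unadjusted p under 0.05, and their median difference was -0.02. Their group means were 13.25 to 13.88, close to the array maxima, so these probe sets are a weak measure of a difference. Their summed unlogged signal was 96966 to 102675 in alpha MHC Cre hearts and 97833 to 103223 in no Cre hearts. Other tested probe sets of these markers differed by -0.37 for Myh6 and -0.12 for Mb. Those of Myl3 differed by -0.12 to -0.04 and those of Pln by -0.11 to 0.01. Of 9 fibroblast markers 5 rose by limma and 0 fell, which is 55.6% called against 6.24% of all genes tested. At an unadjusted p under 0.05 there were 8, or 88.9% against 19% of all genes tested. The summed signal of fibroblast markers was 29727 to 32982 in alpha MHC Cre hearts and 19790 to 21453 in no Cre hearts.

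Neurons are another cell type known for Rbfox1. Of the markers of neurons and glia 6 were tested, none was called by limma and 1 had an unadjusted p under 0.05, while Snap25, Tubb3, Elavl4 and Nefl were left out as dim. Their summed signal was 514 to 600 in alpha MHC Cre hearts and 503 to 569 in no Cre hearts. Skeletal muscle markers had 3 of 9 tested and none called. By limma 2 had an unadjusted p under 0.05, or 66.7% against 19% of all genes tested. Both were lower with Cre (Myh2 -0.48, Tnni2 -0.35), while Mylk2 differed by 0.08. Skeletal muscle sums were 250 to 312 in alpha MHC Cre hearts and 350 to 365 in no Cre hearts. The 6 that were left out as dim included Myh1, Myh4, Actn3, Myog and Myod1. Of the atrial markers 2 of 5 were tested, while Sln, Bmp10 and Dkk3 were left out as dim. The sum was 2062 to 3080 in alpha MHC Cre hearts and 326 to 421 in no Cre hearts, set by Myl7. The other tested marker, Myl4, was not called and differed by -0.02 ± 0.13 (SE), and by -0.16 in its other probe set. Myl7 read 10.72, 11.42 and 10.92 in alpha MHC Cre hearts, against 4.34, 3.39 and 3.42 in no Cre hearts. The no Cre values lie below the filter level of 5.16, so Myl7 passed the filter through the alpha MHC Cre hearts alone. Myl7 was called higher, but that call is given as a description only and without a size. Endothelial markers had 1 of 10 called by limma, higher, which is 10% against 6.24% of all genes tested. An unadjusted p under 0.05 was found for 2, or 20% against 19% of all genes tested. Endothelial sums were 6763 to 7205 in alpha MHC Cre hearts and 5546 to 6751 in no Cre hearts. Smooth muscle and pericyte markers had 0 of 7 called by limma (1 with an unadjusted p under 0.05) and summed to 9363 to 10589 in alpha MHC Cre hearts and 7923 to 10202 in no Cre hearts. Leukocyte markers had 0 of 8 called by limma (1 with an unadjusted p under 0.05) and summed to 3548 to 3917 in alpha MHC Cre hearts and 3287 to 4044 in no Cre hearts. The part of cell composition in the Rbfox1 difference was not tested.

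Rbfox2, the widely expressed relative with nearly the same RNA-binding domain, was not called by any of its 4 probe sets. The brightest, 1418245_a_at, read 8.72, 8.87 and 9.12 in alpha MHC Cre hearts, against 9.03, 8.85 and 8.80 in no Cre hearts. The groups overlapped, and the difference was 0.01 ± 0.14 (SE) with a 95% interval of -0.31 to 0.32. The other probe sets gave -0.19, 0.20 and 0.22, so the gene had no common direction. Only the lowest of these, 1418247_s_at, had groups that did not overlap, by a gap of 0.03.

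The Mbnl genes gave differences at or below 0, without a call. The bright probe set of Mbnl1, 1416904_at, read 11.97, 11.89 and 11.85 in alpha MHC Cre hearts, against 11.96, 11.86 and 11.95 in no Cre hearts, a difference of -0.02 ± 0.11 (SE). A tested probe set of Mbnl1 with a low signal, 1457924_at, differed by -0.35 with a gap of 0.05 between the groups.

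Mbnl2, which acts beside Mbnl1 and is best known from brain, had 3 bright probe sets with nearly equal differences of -0.31, -0.34 and -0.32. The brightest, 1433754_at, read 10.97, 10.88 and 10.75 in alpha MHC Cre hearts, against 11.13, 11.15 and 11.26 in no Cre hearts. Probe set 1455827_at read 10.91, 10.86 and 10.77 in alpha MHC Cre hearts, against 11.17, 11.06 and 11.33 in no Cre hearts. In all 3 bright probe sets the groups did not overlap, with gaps of 0.16, 0.15 and 0.02, and the 95% interval of the brightest ran from -0.58 to -0.05. The dimmer probe sets 1457237_at and 1457477_at differed by -0.0030 and -0.01 with overlapping groups, so the probe sets of Mbnl2 split into a bright set with a small difference and a dim set without one. Probe set 1455827_at was called with trend and robust variance settings alone among the alternatives run.

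The Celf1 probe sets disagreed. Celf1 encodes the CUG-binding protein whose level is high in fetal heart and in myotonic dystrophy. Probe set 1427413_a_at read 8.67, 8.44 and 8.49 in alpha MHC Cre hearts, against 8.14, 7.87 and 8.09 in no Cre hearts. It was the member probe set with the highest difference, 0.50 ± 0.13 (SE), and its groups were separated by 0.29. It missed the call in the fit across the table but passed with quantile normalization, a stricter filter, 16 or 64 added to the signal, or trend and robust variance settings. The brightest probe set, 1426407_at, read 11.03, 10.65 and 11.10 in alpha MHC Cre hearts, against 11.20, 11.12 and 11.03 in no Cre hearts, a difference of -0.19 ± 0.14. The remaining tested ones gave -0.15 and -0.17. No source used here says what part of the Celf1 transcripts each probe set covers.

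Celf2, a close relative of Celf1, showed small differences and overlapping groups in all 5 tested probe sets. They ranged from -0.10 to 0.27. The brightest, 1451154_a_at, read 9.77, 9.53 and 9.67 in alpha MHC Cre hearts, against 9.67, 9.31 and 9.74 in no Cre hearts, with a 95% interval of -0.24 to 0.41.

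Rbm20, represented by a single probe set, read 10.67, 10.43 and 10.44 in alpha MHC Cre hearts, against 10.66, 10.40 and 10.59 in no Cre hearts. The values of both groups cover the same range, and the difference was -0.04 ± 0.13 (SE) with a 95% interval of -0.33 to 0.25. With 1 probe set, agreement within the gene cannot be judged.

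Rbm24 had 5 probe sets with differences from -0.15 to 0.03. Its brightest, 1454752_at, read 11.26, 11.32 and 11.15 in alpha MHC Cre hearts, against 11.14, 11.08 and 11.40 in no Cre hearts, a difference of 0.03 ± 0.13 (SE). The hearts of the groups were interleaved in 4 of the 5, and in 1456180_at the groups missed each other by 0.02.

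Ptbp1 had its highest difference in the brightest of 3 probe sets. Probe set 1424874_a_at read 9.33, 9.34 and 9.52 in alpha MHC Cre hearts, against 9.04, 9.15 and 9.29 in no Cre hearts. The groups were 0.04 apart, and the difference was 0.24 ± 0.12 (SE), with a 95% interval of -0.04 to 0.51. The other Ptbp1 probe sets differed by 0.04 and -0.02 and overlapped.

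Qk had 7 probe sets, of which 6 were lower and 1 higher with Cre, without a call. The widest gap was in 1429735_at, which read 10.29, 10.20 and 10.26 in alpha MHC Cre hearts, against 10.56, 10.62 and 10.62 in no Cre hearts. Its hearts were tightly grouped, with SDs of 0.05 and 0.04, and the difference was -0.35 ± 0.11 (SE). It passed with 64 added to the signal and with trend and robust variance settings. The brightest, 1429318_a_at, read 11.52, 11.24 and 11.63 in alpha MHC Cre hearts, against 11.53, 11.66 and 11.53 in no Cre hearts, and the groups overlapped.

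**Figure D3:**
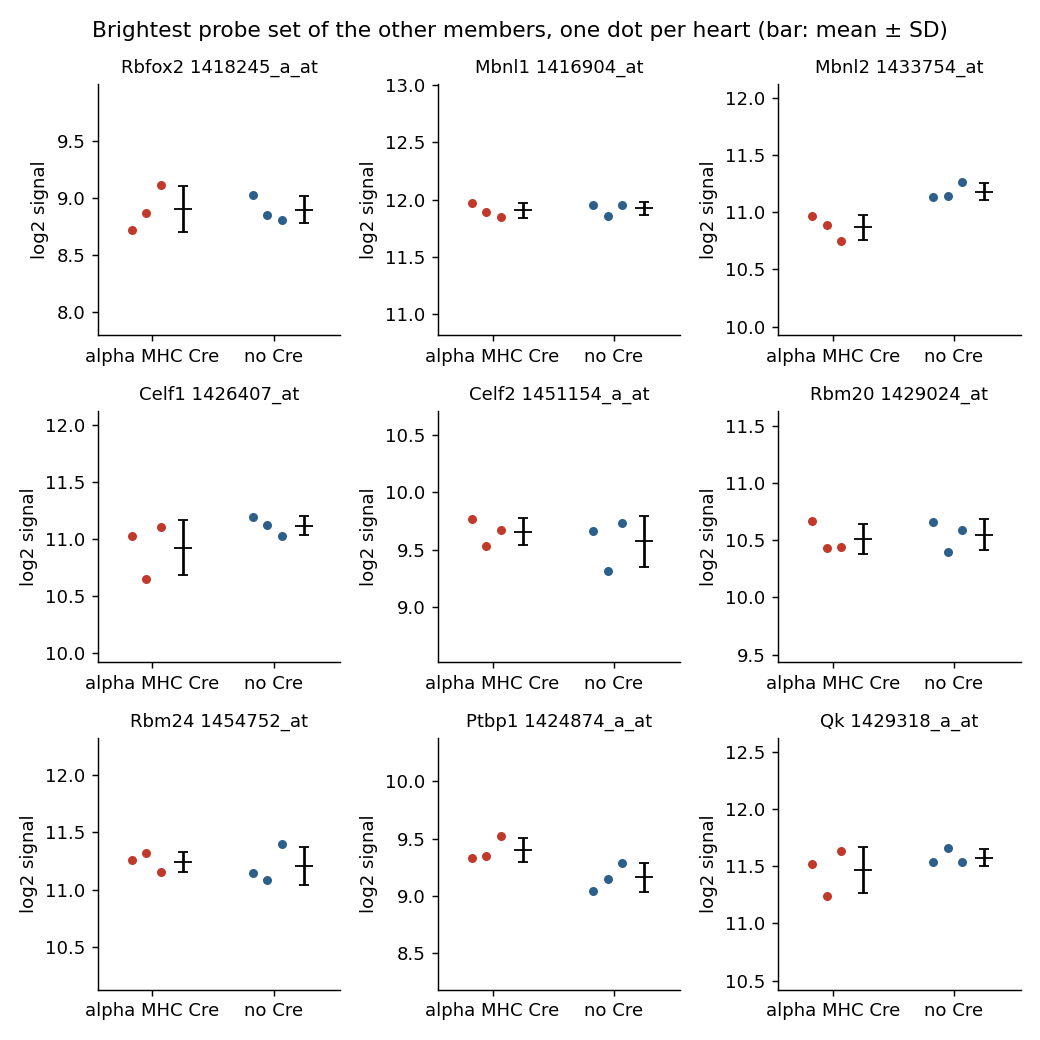
Log2 signal of the brightest probe set of the 9 members other than Rbfox1, 1 dot per heart, with the mean and SD of each group beside the dots. All panels span the same range of log2 units around the gene's own mean, and only Mbnl2 (lower with Cre) and Ptbp1 (higher with Cre) show groups that do not overlap.

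Separation without overlap was not rare on these arrays. It occurred in 14 of the 40 tested member probe sets, 12 of them lower and 2 higher with Cre, against 23.5% of all tested probe sets. Without Rbfox1 it was 10 of 36, or 27.8%, close to that background. For the 9 other genes the 95% intervals of the brightest probe sets extended at most 0.33 to either side of the difference.

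Other genes of the splicing machinery were taken from lists of related factors, with each gene represented by its brightest tested probe set. Over all genes 4.2% rose, 2.04% fell and 6.24% were called in either direction. No gene was called by limma among 25 further tissue splicing regulators, 20 SR proteins and their kinases, 24 hnRNP proteins and 29 core spliceosome components. At an unadjusted p under 0.05 the counts were 1, 2, 1 and 1, or 4%, 10%, 4.17% and 3.45% of each list, against 19% of all genes tested. The medians of these lists were -0.05, 0.03, -0.0038 and -0.07, beside -0.01 over all genes tested.

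The members of these lists with the widest differences in the brightest probe set are given as values. Dimmer probe sets could differ more. The other tested probe sets of Tia1 differed by -0.96 to 0.22 (brightest 0.32), and those of Pcbp2 by -0.90 to -0.11 (brightest -0.19). Among the tissue regulators Rbm38, an RNA-binding protein induced by p53, differed by -0.37 ± 0.14 (SE, adjusted p 0.19 by limma), and Rbm47 by -0.34 ± 0.23 (0.51). The other tested probe set of Rbm47 differed by 0.28, and the -0.34 became -0.07 without alpha MHC Cre heart 3 and -0.58 without alpha MHC Cre heart 2. Srpk3, a muscle kinase of SR proteins and a target of Mef2, read 10.46, 10.26 and 10.30 in alpha MHC Cre hearts, against 10.12, 9.33 and 9.76 in no Cre hearts. Its groups did not overlap, but no Cre heart 2 was low, and the difference of 0.61 ± 0.19 was not called (limma adjusted p 0.12). It passed without no Cre heart 1 (difference 0.80, limma adjusted p 0.039). The other tested probe sets of Srpk3 differed by 0.14 to 0.57. Srsf2, an SR protein, differed by 0.37 ± 0.14, and the poly(C)-binding Pcbp4 by 0.38 ± 0.15. Syncrip differed by -0.20 ± 0.13 in its brightest probe set but by 0.02 in the mean over its probe sets. The spliceosome components Prpf4 and Snrpa1 differed by -0.38 ± 0.12 and -0.32 ± 0.15, and the other tested probe set of Prpf4 by 0.03.

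Transcripts whose exons these proteins are known to regulate were looked at for their overall level, since these probe sets do not report exon use. Of 28 tested genes 1 rose and 2 fell, which is 10.7% against 6.24% of all genes. By limma 7 had an unadjusted p under 0.05, which is 25% against 19% of all genes. This list and those above were chosen with earlier results of these data known. The shares and the calls of their genes are therefore descriptions only. Fhod3, a formin that organises sarcomeric actin, read 10.64, 10.41 and 10.54 in alpha MHC Cre hearts, against 11.35, 11.35 and 11.35 in no Cre hearts. The no Cre hearts were almost identical and all above the hearts with Cre, and Fhod3 fell by 0.82 ± 0.11 (SE, limma adjusted p 0.0043). When dim probe sets were kept, the limma adjusted p of Fhod3 was 0.048. With 1 tested probe set, agreement within the gene cannot be judged.

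Vldlr, a lipoprotein receptor, read 11.52, 10.83 and 11.00 in alpha MHC Cre hearts, against 12.01, 11.72 and 11.93 in no Cre hearts. It fell by 0.77 ± 0.18 (limma adjusted p 0.044), and the other 5 tested probe sets of the gene differed by -1.35 to -0.85. The call was lost without alpha MHC Cre heart 2 or 3 or any no Cre heart (adjusted p 0.063 to 0.17), and when dim probe sets were kept (0.23). Rtn4, a reticulon of the endoplasmic reticulum, read 11.56, 11.41 and 11.54 in alpha MHC Cre hearts, against 11.00, 10.97 and 11.12 in no Cre hearts. It rose by 0.47 ± 0.11 (limma adjusted p 0.048), a call lost in 10 of 16 alternatives, among them leaving out any 1 heart (0.072 to 0.15), and its other probe sets differed by 0.03 to 0.57.

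**Figure D4:**
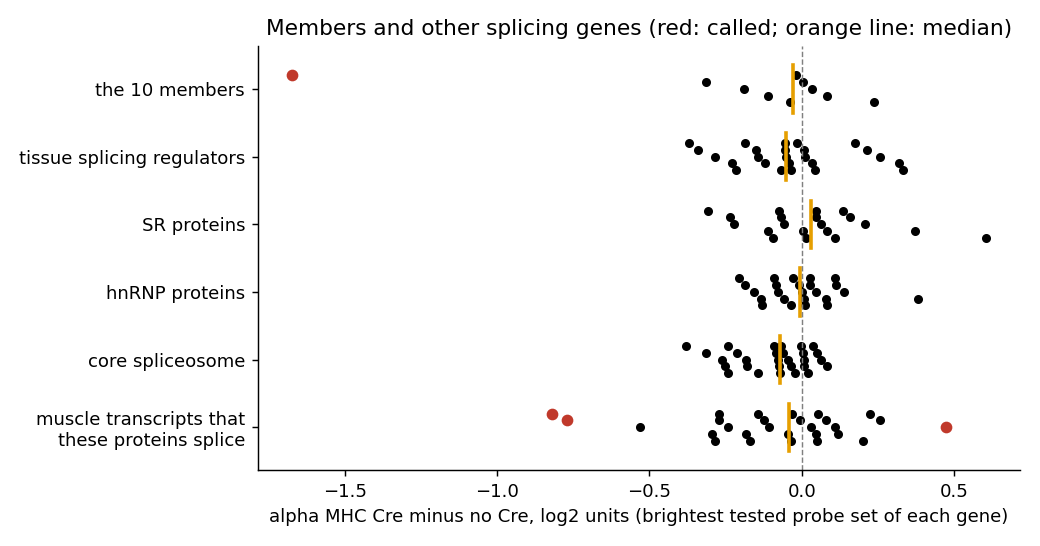
Difference in log2 signal, alpha MHC Cre minus no Cre, for the 10 members and the tested genes of 5 lists, 1 dot per gene through its brightest tested probe set. Red dots passed the threshold and orange lines are medians: Rbfox1 lies at -1.67, apart from the other members, and the only other red dots are Fhod3, Vldlr and Rtn4 in the bottom row.

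Genes with values most like those of Rbfox1 were ranked by Pearson correlation with its brightest probe set over the 6 arrays, as a description. The 6 highest were Bbs10 (0.998), Tango2 (0.997), Gins1 (0.997), Slco1b2 (0.996), Clpp (0.994) and Retsat (0.994). They encode a chaperonin-like protein of the Bardet-Biedl group, a protein linked to Golgi organisation, a subunit of the GINS replication complex, an organic anion transporter, a mitochondrial protease and a retinol saturase. In all, 209 genes, or 1.7% of the genes ranked, reached 0.95. All of these correlations hold the group difference as well as the heart-to-heart order.

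Likeness to Rbfox1 over these arrays fixes both the direction and the order of the hearts, so the values of these genes are a description, with no test. Retsat read 9.00, 8.72 and 8.50 in alpha MHC Cre hearts, against 9.72, 9.86 and 9.80 in no Cre hearts, a difference of -1.06 ± 0.15 (SE). Tango2 read 10.11, 9.92 and 9.85 in alpha MHC Cre hearts, against 10.65, 10.68 and 10.72 in no Cre hearts, a difference of -0.73 ± 0.12. All differences of the 6 genes were smaller in size than the -1.67 of Rbfox1. Slco1b2 differed by -0.81 ± 0.12, but by -0.34 in the mean over its probe sets. Bbs10 and Gins1 differed by -0.66 ± 0.12 and -0.56 ± 0.11, but by -0.27 and -0.30 with 64 added to the unlogged signal, and Slco1b2 then by -0.40. Clpp differed by -0.45 ± 0.11.

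**Figure D5:**
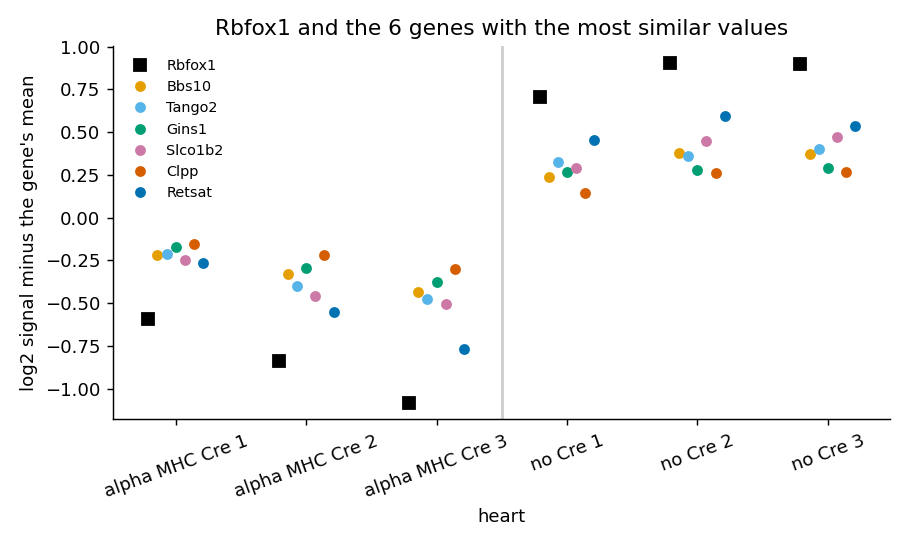
Log2 signal minus the gene's own mean in each heart for Rbfox1 (black squares) and the 6 genes with the most similar values (coloured circles). All 7 genes are below their mean in the 3 alpha MHC Cre hearts and above it in the 3 no Cre hearts, and Rbfox1 spans the widest range.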

How the data were processed

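Each of the 6 arrays has log2 signals that the authors deposited, 1 for every probe set. They were made with PLIER, per the submitters' processing notes. The PLIER settings and any scaling across arrays were not stated in a source used here, and base 2 was inferred from the deposited values. Array medians differed by less than 0.1, so no normalization was added. The 64 controls were removed, then the dimmest 40% by mean over all arrays (18015 probe sets, at most 5.16). Differences between the groups were fitted without covariates by lmFit and eBayes of limma (version 3.58.1, under R 4.3.3) and tested on both sides, with Benjamini-Hochberg adjustment over the 27022 that remained and a threshold of 0.05. Members left out as dim took values from the fit without a filter. Detection calls were not used, and the number of arrays limits the precision.

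Gene names came from the platform annotation: 34945 probe sets carry 1 symbol, 932 several and 9160 none, and only the first were named. Of 147 listed splicing genes, 126 were tested, 8 were dim and 13 had no probe set named for them alone here. Members and lists were chosen with earlier results of these data known. Named genes were all members, up to 4 called genes per list with the largest difference, or 2 where none was called, and the 6 genes most like Rbfox1. Myl7, Myl4 and the other markers given with values, and Tia1 and Pcbp2, were named after their values were seen. The titles do not say whether replicate numbers pair the hearts, and the main fit took them as unpaired. Deviations of the numbered pairs correlated at -0.06, 0.21 and -0.19, which cannot settle it with so few hearts. The procedure was run on simulated data, drawn independently for each probe set, with changes of 1 or 2 log2 units. That run does not cover smaller differences. Alternatives covered normalization, filter, offsets of 16 and 64, variance settings, array weights, the block, the mean over probe sets, thresholds and leaving out each heart.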

Additional observations from a re-analysis of the deposited data

How the results depend on the processing

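The difference of Rbfox1 ran from -1.80 to -1.54 over 16 alternatives and was called in each. These include the mean over its probe sets (-1.63), and the rest used its brightest probe set. Since this contrast on these arrays chose Rbfox1, the refits describe its dependence on processing and are no separate support. Leaving out 1 heart gave 3 to 4 called member probe sets. With trend and robust variance settings 7 were called, since probe sets of Celf1, Qk and Mbnl2 also passed. In the whole table, 1412 calls became 275 without a filter, 529 at a threshold of 0.01, 2220 at 0.10 and 600 to 1075 with 1 heart left out. The lowest of these, 600, was without alpha MHC Cre heart 2, and the counts were 923 without alpha MHC Cre heart 1, 905 without alpha MHC Cre heart 3 and 913 without no Cre heart 1. Of the listed splicing genes, 3 were called, and 1 without a filter, 1 at a threshold of 0.01 and 1 to 2 with 1 heart left out. The count was 4 with array weights, with the mean over all probe sets and at a threshold of 0.10. With the replicate number as a block the whole table gave 909 calls, the member probe sets 4 and the listed genes 2, and 2 of the 6 hearts correlated best with the heart of their own number. The mean over all probe sets turned Syncrip to 0.0242 and moved Celf1 to -0.0025, Mbnl2 to -0.20, Mbnl1 to -0.18 and Ptbp1 to 0.08. The cause of these shifts was not tested. With 3 hearts a group, the 95% intervals of the brightest probe sets of the 9 genes other than Rbfox1 reached up to 0.33 log2 units to either side.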
